A study of Homo sapiens with 2 samples.

Results

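The genes described here encode transcription factors and cofactors that direct red cell and platelet precursors: GATA1, GATA2, TAL1, KLF1, LMO2, LDB1, ZFPM1, NFE2, GFI1B and RUNX1. They were chosen by name, with earlier results of these data known, and every probe set whose array annotation carries their symbol was taken. Of the 10 genes, 9 had at least 1 probe set of their own, 19 probe sets in all. The 13 probe sets of RUNX1 are annotated to RUNX1 and to 2 loci without a gene name together, so RUNX1 is described apart and enters no count of genes. All 9 genes with their own probe set passed the filter on signal, among 12774 expressed genes on the array.

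The cells were K562, an established human erythroleukemia line that carries early red cell features and can be driven towards either red cell or megakaryocyte maturation. One culture was nucleofected (electrically transfected) with 3 µg of a mimic of the microRNA miR-34a, and the other with 3 µg of a control mimic without homology to human genes. Both were harvested 24 hours later, and total RNA of each was hybridised to 1 Affymetrix expression array. Each group is thus 1 array, no value has a replicate, no test between groups was possible, and only sizes are given.

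GATA factors bind DNA through zinc fingers, and early progenitors rely on GATA2 while maturing red cells and megakaryocytes rely on GATA1, an exchange known as the GATA switch. In those cells GATA1 works inside a larger complex in which TAL1 pairs with an E protein such as TCF3, LMO2 bridges the parts and LDB1 ties distant complexes together. ZFPM1 (FOG1) docks onto GATA1 and recruits a repressor complex, GFI1B is a repressor that carries the demethylase KDM1A, KLF1 activates the beta globin and many other red cell genes, NFE2 pairs with small MAF proteins, and RUNX1 pairs with CBFB.

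A microRNA and a set of start regions place the experiment. The mature microRNA that the mimic copies, as RefSeq gives it on GRCh38.p14 (chr1:9151735-9151756, minus strand), is printed with its seed, the part that pairs with target messages (bases 2 to 8), in capitals. The sequence of the purchased mimic itself was not used here.
miR-34a-5p: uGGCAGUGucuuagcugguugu

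The start regions shown are those of the lineage factor genes that hold a GATA-type match, chosen because these factors are known to act on each other's genes. RefSeq windows on GRCh38.p14, from 250 bases before to 50 bases after an annotated start, were found for 8 of the 10 genes (11 windows); LMO2 and NFE2 were not matched. The letters searched on both strands were AGATAA or AGATAG or TGATAA or TGATAG, and matches are in capitals. A match on the other strand appears as its complement read backwards. TAL1 (chr1:47232286-47232585, minus strand), KLF1 (chr19:12887152-12887451, minus strand) and GFI1B (chr9:132945281-132945580 and chr9:132978444-132978743, plus strand) hold one in at least 1 window.
TAL1: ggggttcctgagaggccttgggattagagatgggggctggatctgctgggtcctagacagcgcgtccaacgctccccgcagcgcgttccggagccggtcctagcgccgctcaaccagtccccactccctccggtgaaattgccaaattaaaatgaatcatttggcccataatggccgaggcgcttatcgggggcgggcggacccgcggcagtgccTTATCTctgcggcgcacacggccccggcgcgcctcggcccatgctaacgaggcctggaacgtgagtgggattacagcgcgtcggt
KLF1: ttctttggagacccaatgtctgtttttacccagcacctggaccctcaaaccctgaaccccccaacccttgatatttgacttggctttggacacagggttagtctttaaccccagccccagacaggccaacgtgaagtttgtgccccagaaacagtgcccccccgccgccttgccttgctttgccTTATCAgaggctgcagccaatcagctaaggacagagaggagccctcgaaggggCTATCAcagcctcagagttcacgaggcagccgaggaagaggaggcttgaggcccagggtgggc
GFI1B, first start: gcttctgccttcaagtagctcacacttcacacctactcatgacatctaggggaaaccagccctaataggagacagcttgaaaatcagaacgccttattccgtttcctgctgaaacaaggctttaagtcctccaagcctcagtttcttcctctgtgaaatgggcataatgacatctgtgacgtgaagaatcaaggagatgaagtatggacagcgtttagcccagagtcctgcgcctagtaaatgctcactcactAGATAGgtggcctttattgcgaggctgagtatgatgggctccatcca
GFI1B, second start: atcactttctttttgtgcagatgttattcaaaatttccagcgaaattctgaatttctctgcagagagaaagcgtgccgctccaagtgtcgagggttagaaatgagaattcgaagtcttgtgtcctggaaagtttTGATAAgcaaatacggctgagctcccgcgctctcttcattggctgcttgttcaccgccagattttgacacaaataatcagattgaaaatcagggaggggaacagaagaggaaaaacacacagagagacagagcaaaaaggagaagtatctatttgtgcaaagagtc

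The GATA-type letters occurred in 4 of the 11 windows and in 25% of all 35116 RefSeq windows of the same length. In the KLF1 window they lay at -66 and -13 from the start, in the TAL1 window at -35, in the second GFI1B window at -116, and in the first GFI1B window at 4 bases past its start. The KLF-type letters CCNCNCCC, where N is any base, occurred in 8 of the 11 windows and in 56.2% of all windows, with 9 matches, some of them overlapping, in the window of ZFPM1, whose bases are 83.0% G or C. E-box letters, CAGATG or CAGCTG, occurred in 3 of the 11 windows, 2 of them of GFI1B, and in 29.8% of all windows. A match describes letters and not a bound site.

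Signals are intensities in arbitrary units. A log2 ratio is the difference in log2(signal + 14.9), miR-34a minus control, centred on the median of expressed genes, and it understates the change of dim probe sets. A probe set is called within background where its signal does not exceed 75.4, the highest of 27 bacterial control probe sets. Other probe sets of a gene gave the error available here: over 5494 genes with at least 2 expressed probe sets, the spread of the brightest pair about a shared value was 0.22 (log2), which covers differences between probe sets and not between cultures. Before centring, the log2 ratios of 18 spiked-in control probe sets averaged 0.014 ± 0.068 (SD, n = 18 probe sets). The 3′ to 5′ signal ratio of GAPDH, which grows as RNA degrades, was 3.07 with the control mimic and 3.53 with miR-34a. That of ACTB was 4.30 with the control mimic and 4.54 with miR-34a. The part of these differences in the values below was not tested.

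The lineage factor genes were mostly a little higher with miR-34a. Of the 9 genes, 8 had a ratio above 0 and 1 below, where 50% of expressed genes lay above 0, which the centring sets, or 48.6% of the 9639 genes with both signals above background. The repressor gene GFI1B and the GATA1 cofactor gene ZFPM1 were at least 1.5-fold higher, and none of the 9 was 1.5-fold lower. Of expressed genes 3.28% passed 1.5-fold upwards and 3.01% downwards, or 2.66% and 2.92% of those with both signals above background. No lineage factor gene reached 2-fold in either direction, against 0.595% of expressed genes higher and 0.548% lower, or 0.415% and 0.498% of those with both signals above background. The median log2 ratio of the 9 genes was 0.22 (0.10 over the 7 genes read without the less specific _s_at, _x_at and _a_at probe sets), with a range from -0.11 to 0.78, while the middle 50% of expressed genes ran from -0.17 to 0.17. The ratios of GFI1B, ZFPM1, LMO2 and NFE2 exceeded the spread between probe sets, that of GATA1 matched it, and the rest lay within it. The rest were TAL1, KLF1, LDB1 and GATA2. A ratio above that of GATA1 was found in 4 of the 9 genes and in 19.9% of all expressed genes. Passing the spread is thus common on these arrays. A shift in the share of cells that express a gene and a shift in its RNA per cell cannot be told apart in such bulk RNA.

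**Figure D1:**
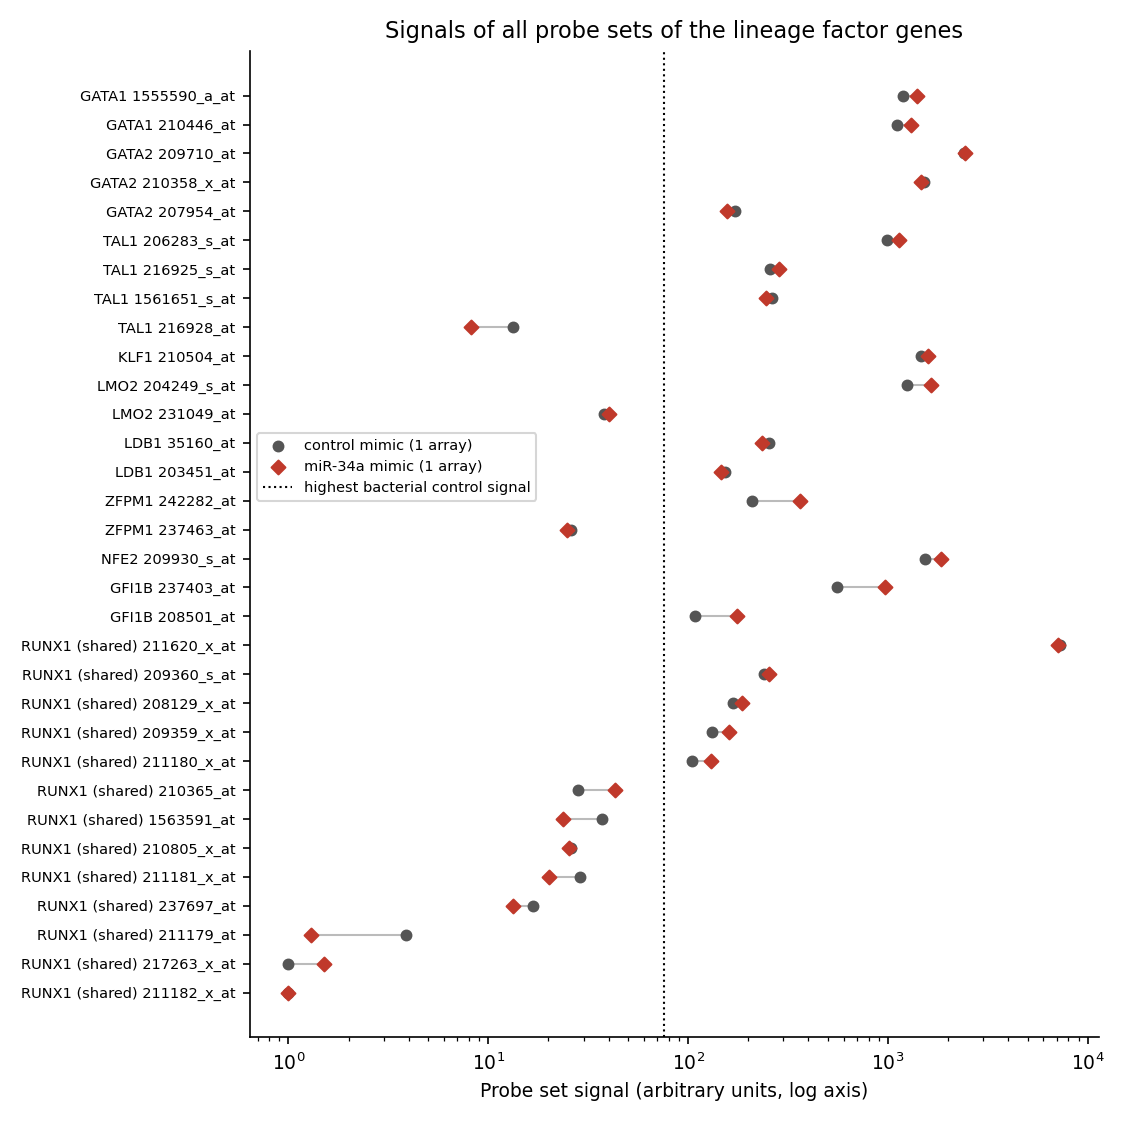
Signal of each probe set on the control array (grey circles) and on that of miR-34a (red diamonds), in arbitrary units on a log axis, with the highest bacterial control signal as a dotted line. The 2 probe sets of GFI1B and 1 of the 2 of ZFPM1 show the widest gaps among probe sets above that line.

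GATA1 was a little higher with miR-34a on both of its probe sets, while those of GATA2 lay on both sides of 0. GATA1, the factor of maturing red cells and megakaryocytes, read 1187 with the control mimic and 1395 with miR-34a on its brightest probe set, and its other read 1109 and 1309. Both probe sets were higher with miR-34a, by signal ratios of 1.18 and 1.18 and log2 ratios of 0.22 and 0.23, which differ from each other by far less than the spread between probe sets of a gene. Of all expressed genes 19.9% had a higher ratio than GATA1, so its size is common on these arrays.

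GATA2, the progenitor factor, read 2389 and 2420.1 on its brightest probe set, 1511 and 1469 on a second, and 172.4 and 157.0 on the dimmest. The log2 ratios were 0.0093, -0.049 and -0.13, all within the spread between probe sets, so GATA2 showed no difference beyond that spread in either direction. As a mean over its probe sets the value of GATA2 was -0.052, so its sign depends on which probe sets are used. The log2 ratio of GATA1 exceeded that of GATA2 by 0.21 between brightest probe sets and by 0.28 between means over probe sets. The spread of 0.22 is that of a single probe set about a shared value. It was not worked out for a difference between genes, so it gives no limit for either value.

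The cofactor of GATA1 had a larger ratio than the GATA genes. ZFPM1 read 208.1 with the control mimic and 362.3 with miR-34a, a signal ratio of 1.74 and a log2 ratio of 0.75. Only 1.46% of expressed genes had a higher ratio. This rests on 1 probe set: the other of ZFPM1 read 26.0 and 24.8, within background on both arrays, and gives no second reading. ZFPM2, its paralog, which serves GATA factors of other tissues, went the other way, from 258.8 to 204.5, a log2 ratio of -0.33.

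GFI1B, the repressor needed for red cell and platelet formation, had the highest ratio of the 9 genes and the only one past 1.5-fold on more than 1 probe set. Its brightest probe set read 554.1 with the control and 970.0 with miR-34a, and its other read 108.0 and 176.2. The signal ratios were 1.75 and 1.63 and the log2 ratios 0.78 and 0.63, with an SD of 0.11 over both probe sets. All 4 signals were above background, and 1.23% of expressed genes had a higher ratio than its brightest probe set. Its paralog GFI1, which acts in stem cells, lymphocytes and granulocytes, read 7.06 and 1.0, within background on both arrays.

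**Figure D2:**
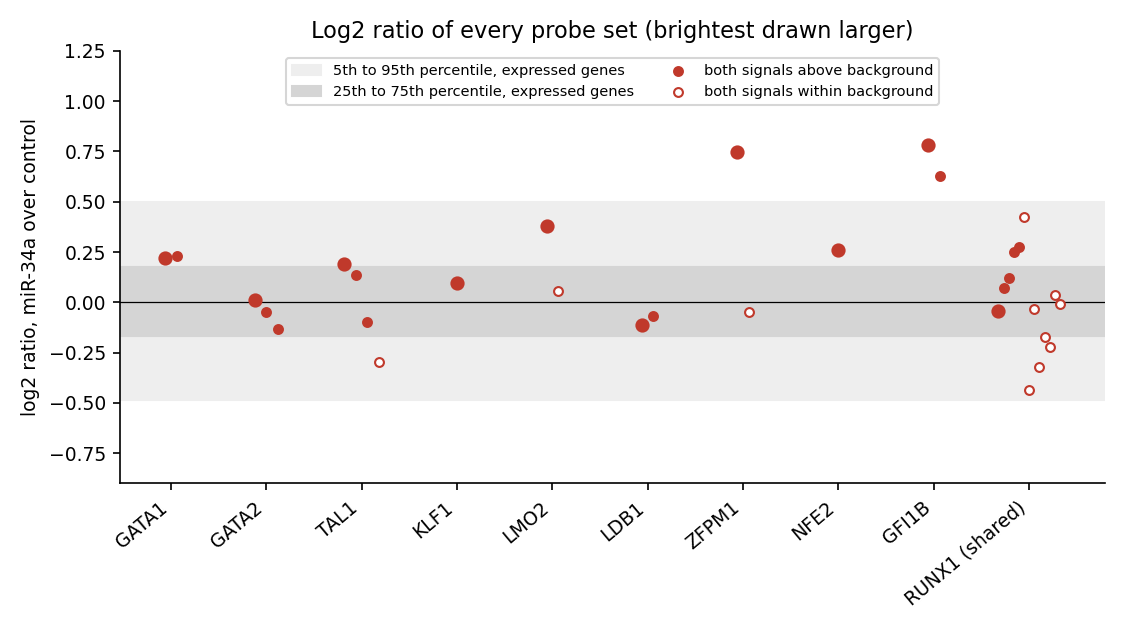
Log2 ratio of miR-34a over control for every probe set of each gene, with the brightest drawn larger, open circles for probe sets within background on both arrays, and grey bands for the central 50% and 90% of expressed genes. Both GFI1B probe sets and the brighter ZFPM1 probe set lie above the wider band, and those of GATA2 and LDB1 stay inside the narrow one.

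Genes of the TAL1 complex had ratios on both sides of 0. TAL1, the helix-loop-helix subunit, had a brightest probe set that read 985.3 and 1132, while the second read 255.4 and 284.3 and the third read 262.1 and 245.2. The first and second were higher with miR-34a, at log2 ratios of 0.19 and 0.14, and the third was lower, at -0.10, so the probe sets of TAL1 disagreed in sign. The remaining probe set of TAL1 read 13.4 and 8.24, within background, and was under the filter.

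LMO2, the bridging subunit, read 1253 with the control mimic and 1644 with miR-34a, a signal ratio of 1.31 and a log2 ratio of 0.38. It was the third highest of the 9 genes, and 9.11% of expressed genes had a higher ratio. Its other probe set read 37.8 and 40.3, within background on both arrays, with a log2 ratio of 0.059, so the value of LMO2 also rests on 1 probe set. If only that dim probe set is used, because its brighter one is of the less specific _s_at class, the value of LMO2 is 0.063.

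LDB1, the subunit that joins distant complexes, was the only gene of the 9 with a ratio below 0. It read 252.6 and 233.7 on its brighter probe set and 153.7 and 146.8 on the other, with log2 ratios of -0.11 and -0.070. Both are smaller than the spread between probe sets. The E protein gene TCF3, named here for its known contact with TAL1, had -0.065 on the brightest of its 11 expressed probe sets, which ranged from -0.57 to 0.29.

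KLF1 and NFE2 were both read by a single probe set. KLF1, the activator of red cell genes, read 1467 and 1579, a log2 ratio of 0.096 that was exceeded by 34.8% of expressed genes. NFE2, the factor behind platelet release and globin enhancer activity, read 1524 and 1841, a log2 ratio of 0.26 that was exceeded by 16.5%. Neither has a second probe set to compare with, and only the ratio of NFE2 was past the spread seen between probe sets of other genes.

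RUNX1, the factor of definitive blood stem cells and megakaryocytes, could not be read alone. Of its 13 shared probe sets, 8 read within background on both arrays and 5 above it on both. The brightest of the 5 read 7254 and 7088, a log2 ratio of -0.042. The others read 238.9 and 253.3, 167.8 and 185.1, 131.0 and 159.6, and 104.3 and 130.4, with log2 ratios of 0.071, 0.12, 0.25 and 0.28. Thus 4 of the 5 were above 0 and 1 below, and the probe set that was lower is the one whose signal stands far from those of the rest. Its partner gene CBFB, named here for that role, read 1127 and 968.3, a log2 ratio of -0.23, and -0.11 on its other probe set.

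**Figure D3:**
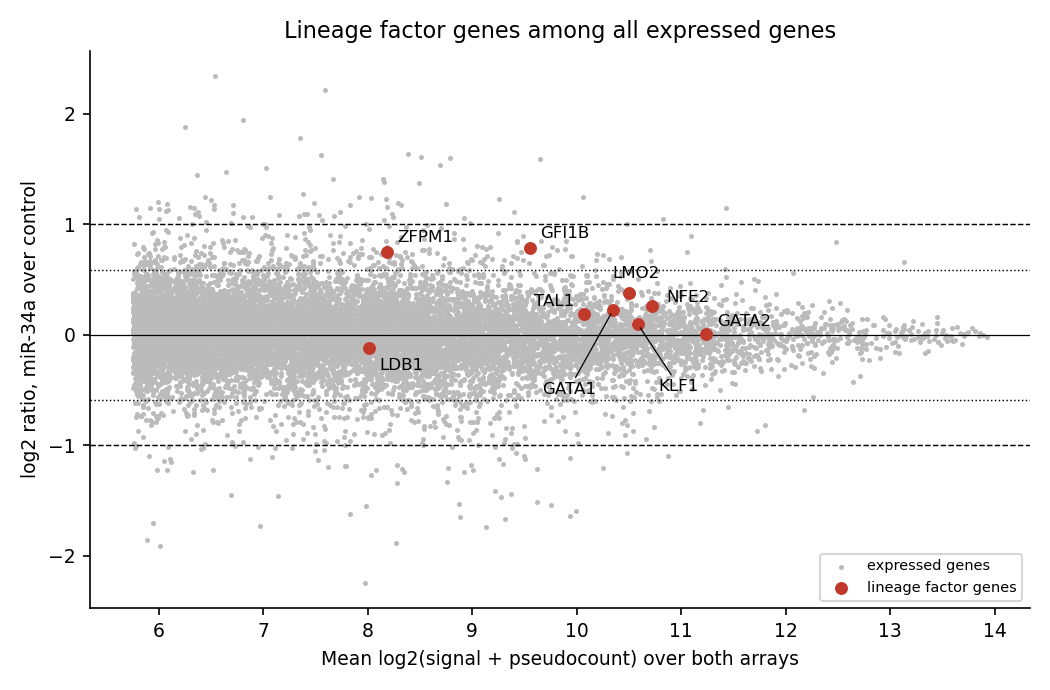
Log2 ratio of miR-34a over control against mean log2(signal + pseudocount) for the 12774 expressed genes (grey) and the 9 lineage factor genes (red), with dashed lines at 2-fold and dotted lines at 1.5-fold. GFI1B, at 0.78, and ZFPM1, at 0.75, lie between the dotted and the dashed line, and the other 7 lie inside the dotted lines.

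The genes around the lineage factors were followed in named lists, also chosen with earlier results of these data known, and described by counts and medians. Among 29 paralogs, 20 were expressed, 11 higher and 9 lower, with 0 past 1.5-fold upwards and 1 downwards. The shares of all expressed genes were 50% above 0, 3.28% past 1.5-fold upwards and 3.01% downwards. The median log2 ratio of the paralogs was 0.066, and it turned below 0 under 2 of 12 alternative settings. KLF3, a repressor that KLF1 induces, was the highest at 0.54, from 411.8 to 609.6, with its expressed probe sets between 0.29 and 0.54. KLF15 had 0.50 within background on both arrays. KLF13 was lowest at -0.77, from 128.9 to 69.8, the latter within background, and ZFPM2 followed. LYL1, the close relative of TAL1, had 0.30, from 1751 to 2173, and is named for that kinship.

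DNA-binding partners of the factors showed no common direction. All 11 partners that had their own probe set were expressed, 6 higher and 5 lower, where 50% of expressed genes lay above 0. The median of the partners was 0.0091 and turned below 0 under 2 of 12 alternative settings. MAFF, a small MAF protein gene and a partner of NFE2, read 111.6 and 255.8, a log2 ratio of 1.09, while its other probe set read 52.1 and 39.2, within background, with -0.32. BACH2, a competitor of NFE2 for the small MAF proteins, had 0.44 on its brightest probe set and 0.098 on another of like signal. The LDB1-binding protein genes SSBP3 and SSBP4 were lowest, at -0.35 and -0.29. Other probe sets of SSBP3 lay near 0, at -0.057 and -0.0019, while all 3 of SSBP4 lay between -0.37 and -0.29.

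Coregulators that these factors recruit were mostly lower. Of 24 expressed coregulator genes, 6 were higher and 18 lower, where 50% of expressed genes lay above 0. None passed 1.5-fold in either direction on its brightest probe set, against 3.28% of expressed genes upwards and 3.01% downwards. On dimmer probe sets PHF21A reached -0.74 and CREBBP -0.62, against -0.089 and -0.14 on their brightest. The median of the coregulators was -0.17, between -0.19 and -0.14 under the alternative settings. The deacetylase gene HDAC1 was lowest, from 1970 to 1417, a log2 ratio of -0.48. MBD3, a subunit of the repressor complex that ZFPM1 recruits, had -0.39 and -0.46 on its brighter probe sets and 0.075 on the third. KDM1A, the demethylase partner of GFI1B, had -0.22, its scaffold RCOR1 read 426.9 and 429.7, and the TAL1 corepressor CBFA2T3 had -0.20; these 3 are named for their contacts. CTBP2, at 0.29, and MTA3, at 0.23, were the highest.

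Red cell genes that these factors are known to activate were mostly higher with miR-34a. Of the 26 genes with both signals above background, 22 were higher and 4 lower, with a median log2 ratio of 0.33. Among those 26, 5 passed 1.5-fold upwards and 0 downwards, and 2 passed 2-fold upwards. Of all genes with both signals above background, 48.6% lay above 0, 2.66% passed 1.5-fold upwards, 2.92% downwards and 0.415% 2-fold upwards. Over all 31 expressed genes 26 were higher and 5 lower, the median was 0.46, and 9 passed 1.5-fold and 4 passed 2-fold upwards. The shares of all expressed genes were 50% above 0, 3.28% past 1.5-fold and 0.595% past 2-fold upwards. The larger counts include ALAS2, SLC4A1, AHSP and CA1, whose control signals were within background; those of ALAS2 and CA1, 24.6 and 37.5, lay under the signal of 39.0 that the filter stands for, so these genes passed it through the miR-34a array. ALAS2, the first enzyme of heme synthesis, had 1.88 and the anion exchanger gene SLC4A1 had 1.17, the latter from a control signal of 46.4. Each of these values rests on 1 probe set. The other of ALAS2 read 18.2 and 31.8 and that of SLC4A1 28.0 and 30.1, within background and under the filter. RHD, the Rh antigen gene, had 1.61 and the membrane skeleton gene DMTN, read by 1 probe set of its own, had 1.41. Both genes were above background on both arrays. RHD has a near-identical neighbour that its probe sets may also read. E2F2, a cell cycle factor gene of red cell precursors, was lowest at -0.47, and ADD2, a membrane skeleton gene, followed at -0.45, with 1 of its 5 expressed probe sets at 0.049. Beside these, 2 of the 9 lineage factor genes passed 1.5-fold; the difference between the lists was not tested.

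Megakaryocyte genes were dimmer. Of 12 expressed genes, 7 were higher and 5 lower, where 50% of all expressed genes lay above 0. The median of the 12 was 0.056, but 6 of them read within background on both arrays. Over the 6 with both signals above background, 5 were higher and 1 lower, where 48.6% of all such genes lay above 0. Among those 6, 4 passed 1.5-fold upwards, 0 downwards, and 1 passed 2-fold upwards. The shares of all genes with both signals above background were 2.66%, 2.92% and 0.415%. None of the other expressed genes of the list passed 1.5-fold. The median of those 6 was 0.68. TUBB1, the platelet tubulin gene and a known NFE2 target, had 1.62, from 91.3 to 314.5, with its other probe set at 0.44 within background. ITGA2B, the platelet integrin gene that GATA1 activates, read 163.4 and 344.0, a signal ratio of 2.10 and a log2 ratio of 1.0. The pseudocount and the centring together hold that value just under the 2-fold limit. The other expressed probe set of ITGA2B read 34.7, within background, and 132.7, a log2 ratio of 1.56. GP9 and PF4, at -0.29 and -0.22, were lowest and within background on both arrays.

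Progenitor factor genes lay on both sides of 0. Of 12 expressed genes, 5 were higher and 7 lower, with 4 past 1.5-fold downwards and 2 past 2-fold upwards. The shares of all expressed genes were 50% above 0, 3.01% past 1.5-fold downwards and 0.595% past 2-fold upwards. Over the 9 with both signals above background, 3 were higher and 6 lower, with 3 past 1.5-fold downwards and 0 upwards. The shares of all such genes were 48.6% above 0, 2.92% past 1.5-fold downwards and 2.66% upwards. MYB, the progenitor factor, read 3023 and 1748, a log2 ratio of -0.79, and MYC read 1814 and 1066, at -0.77. MEIS1 and SPI1 had 1.78 and 1.07 from control signals within background, 73.1 and 67.1. KIT, a stem cell factor receptor gene that GATA2 supports and GATA1 silences, read 1.0 and 1.51, at the floor of the values.

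**Figure D4:**
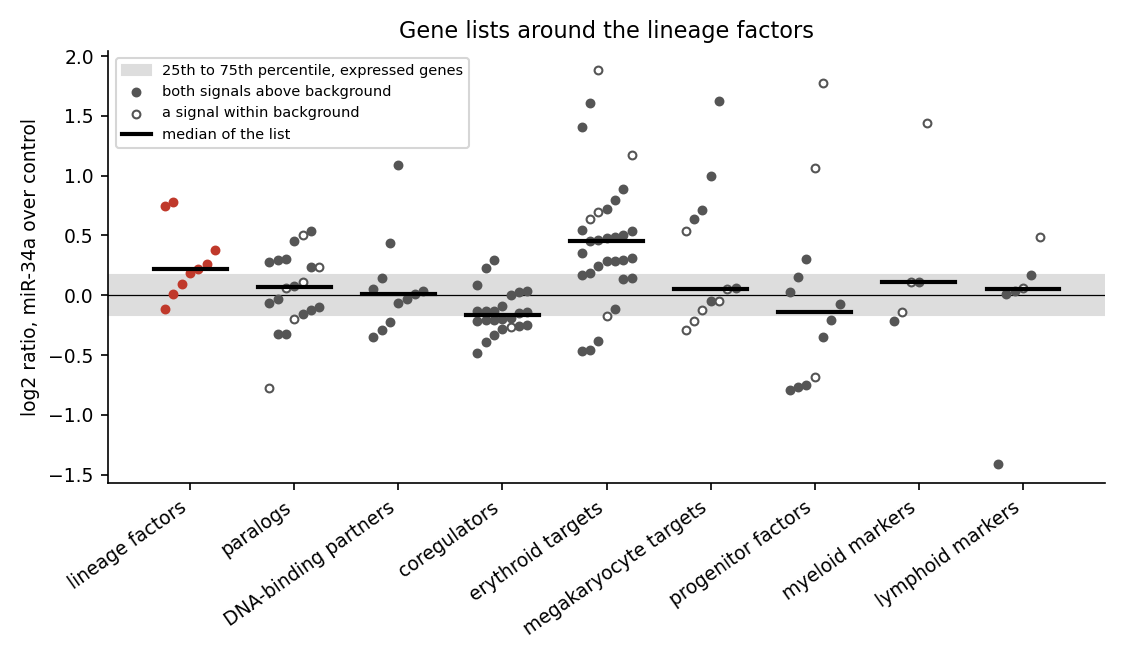
Log2 ratio of miR-34a over control for each expressed gene of each list, with the list's median as a black bar, open circles for genes with a signal within background and a grey band for the central 50% of expressed genes. The medians of the lineage factors (0.22) and the red cell targets (0.46) lie above the band, and that of the coregulators (-0.17) lies at its lower edge. Over the red cell targets with both signals above background the median is 0.33.

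The cells carried the marks of their label on both arrays. The embryonic globin genes HBE1 and HBZ read 10516 and 4258 with the control mimic and 11843 and 7672 with miR-34a, and the transferrin receptor gene TFRC 6806 and 6309. HBZ had the highest log2 ratio of these markers, 0.84, and ABL1, at -0.35, and TFRC, at -0.12 and -0.28 on its expressed probe sets, the lowest. EPOR, the erythropoietin receptor gene, had 0.50 on its brightest probe set, 0.20 on another of equal signal, and 0.36 and -0.084 on dimmer ones, so its probe sets disagreed in sign. Shared gamma globin probe sets (HBG1 with HBG2) had log2 ratios from -0.044 to -0.0067, and shared alpha globin ones (HBA1 with HBA2) from 0.28 to 0.45.

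Some markers of other blood cells were expressed. Of 15 myeloid markers with their own probe set 5 were expressed. Their summed signal was 893.8 with the control mimic and 997.2 with miR-34a. The 10 under the filter read at most 58.2 on either array, which was CEBPA with the control mimic. Among those 10, MPO, ELANE and CD14 read at most 23.7. AIF1, a macrophage gene, had 1.44, its control signal of 34.9 being within background and under that of the filter, LYZ 0.11, CSF1R -0.14 and CSF3R -0.22. Of 12 lymphoid markers with their own probe set 6 were expressed, with summed signals of 1645 and 1099. CD3D, a T cell receptor component gene that made up most of the first sum, went from 953.6 to 351.9, a log2 ratio of -1.41, while CD3E read 32.2 and 36.1. MS4A1 had 0.48 within background on both arrays, CD79B 0.17 and GNLY 0.0095. With the control mimic the brightest of both lists after CD3D were LYZ, at 517.5, and CD79A, at 329.9. The values of LYZ, CSF3R, CD79B and GNLY each rest on 1 probe set. Their other probe sets were within background on both arrays and under the filter, that of LYZ at 19.6 and 1.0. The part of these markers in the values of the lineage factors was not tested.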

How the data were processed

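Messenger RNA of 2 K562 cultures was measured, 1 array per group, grouped by the titles in the labels. The authors deposited probe set intensity values on a linear scale with a floor of 1; which software, background correction and scaling made them is not given in the sources used here. Per the labels' protocols, Trizol RNA was labelled by the standard Affymetrix method. The platform annotation named a single gene (1 symbol) for 41091 probe sets, more than 1 for 1801 and no gene for 11721; gene counts rest on the first kind.

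The pseudocount, 14.9, is the 25th percentile of all values. Expressed means a mean log2 level at or above the median probe set (a signal of about 39.0). A gene took its brightest expressed probe set. The median ratio subtracted was 0.0090. Genes named are all lineage factors, the 2 genes at either end of each list and any gene past 2-fold there. A few more are named for their role or signal, after their values were seen. Members and lists were chosen with earlier results of these data known. Some listed genes are not analysed here. The calculation was tested on simulated data. The number of arrays limits precision. Python 3.11.15, NumPy 2.4.6, pandas 2.3.3, statsmodels 0.14.6 and matplotlib 3.10.9 were used.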

Additional observations from a re-analysis of the deposited data

How the results depend on the processing

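Alternatives changed the pseudocount (0.25 and 4 times), the filter (25th or 75th percentile, none, or both signals above background, the last chosen after seeing the data), the centring (none or on spiked-in controls), the normalization, by loess (span 0.3) or quantiles, and the choice of probe sets for a gene. Under all 12, 0 lineage factor genes passed 2-fold and 2 passed 1.5-fold. Those higher numbered 6 to 8, the 6 being of 7 genes left without the _s_at, _x_at and _a_at classes, which gave no value for TAL1 or NFE2. The median ranged from 0.10, without those classes, to 0.25. GFI1B ranged from 0.71 to 0.81 and ZFPM1 from 0.65 to 0.78. The dimmer GFI1B probe set ranged from 0.49 to 0.68 and fell under 1.5-fold with 4 times the pseudocount. Of the 9 genes, GATA2 alone changed sign, in 1 alternative. The megakaryocyte median was 0.73 with the filter at the 75th percentile and 0.68 with both signals above background, as fewer dim genes were counted. The myeloid median was -0.15 with no filter, as genes within background entered. No paired analysis was possible because each group holds 1 array. Dim probe sets, near 75.4 or below, limit what can be read of RUNX1 and of the megakaryocyte genes.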
